A study of Mus musculus with 15 samples.

Results

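Broad domains of histone H3 acetylated at lysine 27 (H3K27ac) were examined in the nucleus accumbens of C57BL/6 mice. A domain was a region of the H3K27ac table on chromosomes 1 to 19 that was 3000 bp long or longer. The rule took 1689 of the 49712 regions in the table. The domains covered 6.39 Mb, 8.78% of the summed length of all regions, and held 10.4% of the summed counts. The study gave mice cocaine in 7 daily intraperitoneal injections of 20 mg/kg, or saline. Chromatin immunoprecipitation and sequencing profiled H3K27ac in 3 libraries of each group, and each group had 1 input library. Every H3K27ac region had been listed by the authors' caller for a window that differed between these groups. Tests of cocaine against saline in H3K27ac below reuse those values and so give no independent support. The same series holds 3 cocaine and 3 saline libraries of captured 5-hydroxymethylcytosine (5hmC), which gave the second readout used here. The labels do not give age, sex or the number of mice behind a library, nor any statement that replicate libraries were made from different mice. Every p-value below thus rests on spread between libraries, which may be technical. The limma SEs and p-values also borrow variance from all regions, so they are not the spread of the values printed beside them. The same protocol text, naming cocaine, stands on every library, so a library's group was taken from its own treatment label.

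H3K27ac is written by histone acetyltransferases of the CBP family and removed by histone deacetylases, and it marks promoters and enhancers in active use. Long, densely acetylated stretches are known to lie at highly transcribed genes, many of them genes that define a cell type. In the nucleus accumbens, a ventral part of the striatum that belongs to the reward circuit, most neurons are medium spiny neurons, and cocaine raises dopamine there by blocking its reuptake. Positions are in the mouse build mm9. The gene table and promoter sequences used here are in another build (GRCm38.p6), so no domain was assigned to a gene and no sequence is shown. In tissue of mixed cells, fewer cells carrying a domain and less acetylation per cell cannot be told apart.

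The domains were more densely acetylated than shorter regions. Level is given as normalised counts per kb, the mean of the 6 libraries divided by region length. Its median was 494.6 in the domains and 370.6 in the 47609 shorter autosomal regions. The middle 80% of domains lay between 362.3 and 707.1 per kb, against 259.8 and 600.6 in shorter regions, so the distributions overlapped widely. The most densely marked region of the table was a short one, at 1388 per kb, and the highest domain reached 1056. Over the input library, the deposited ratio had a median of 4.89 in cocaine and 4.94 in saline for domains, and of 3.96 and 3.98 for shorter regions. The input itself, implied by these ratios, was nearly level, at 102.4 and 101.3 counts per kb in domains and 100.3 and 99.9 in shorter regions. The higher ratio of the domains thus came with more H3K27ac reads and not with fewer input reads.

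Most domains were only slightly longer than the limit. The median length was 3500 bp, 486 domains reached 4000 bp, 160 reached 5000 bp and 7 reached 9000 bp. Density rose little with length among the domains, with a median of 489 per kb from 3000 to 3900 bp, 501 from 4000 to 4900 bp and 517 at 5000 bp or more. Spearman's rho of level against length was 0.080 across the 1689 domains, which share libraries and are not independent. At the limit itself, the 205 domains of exactly 3000 bp had a median level of 467.4 per kb, and the 263 autosomal regions of 2900 bp had one of 496.6. Domains just inside and regions just outside the limit were therefore of similar density.

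**Figure D1:**
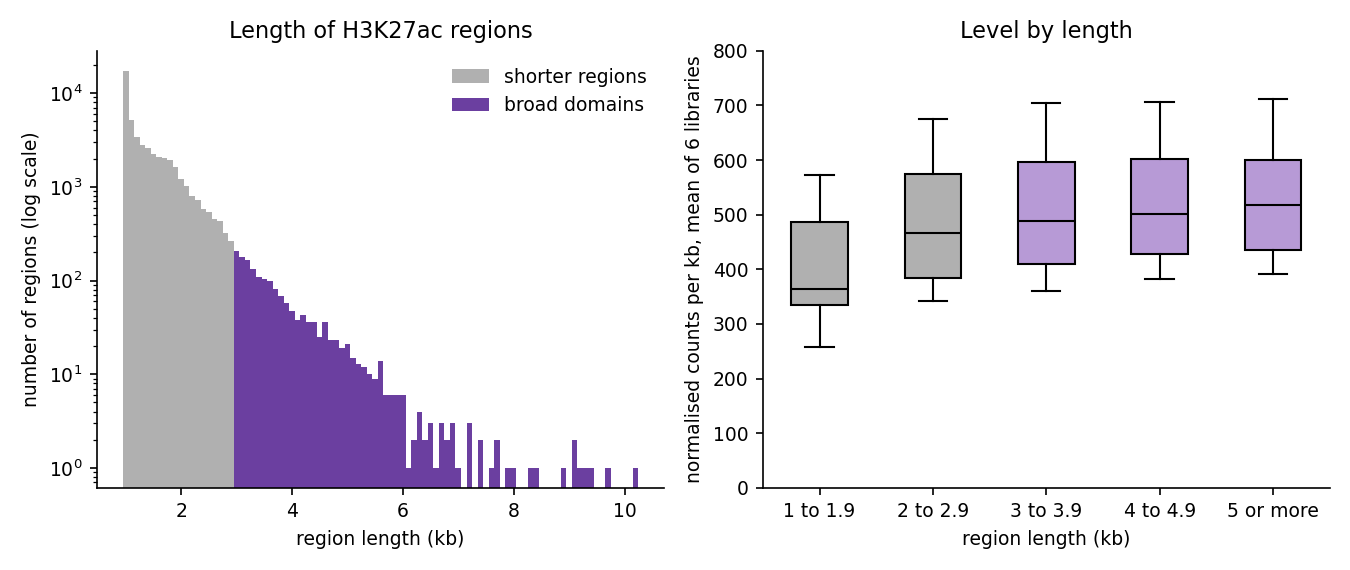
Left, number of autosomal H3K27ac regions (log scale) by length in kb, with the 1689 broad domains in purple and shorter regions in grey. Right, normalised counts per kb (mean of 6 libraries) by length class, with the box from the 25th to the 75th percentile, the line at the median and whiskers at the 10th and 90th percentiles; the median rises from 363.2 at 1 to 1.9 kb to 517 at 5 kb or more.

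The longest domain, chr12:109429801-109440000, was 10200 bp long and held 6225, 6259 and 6190 normalised counts in the cocaine libraries and 6001, 5911 and 5937 in the saline libraries. All cocaine values lay above all saline values. The limma log2 fold change was 0.065 ± 0.0277 (SE), with an adjusted p of 0.0996. The second longest, chr4:154492301-154502000 (9700 bp), held 5593, 5537 and 5348 in cocaine and 5363, 5293 and 5345 in saline, and its groups overlapped. In the third, chr11:119872601-119882000 (9400 bp), the order was the other way, with 5042, 5050 and 5128 in cocaine below 5174, 5298 and 5329 in saline. The fourth, chr11:59547301-59556600 (9300 bp), had 4439, 4413 and 4398 in cocaine above 4244, 4136 and 4265 in saline. The fifth, chr3:87942001-87951200 (9200 bp), had 6523, 6595 and 6665 in cocaine below 6763, 6740 and 7120 in saline. None of these 5 domains passed the limma test at an adjusted p of 0.05, and their adjusted p ranged from 0.0996 to 0.331. Other settings gave limma calls for 4 of them. The chromosome 12 domain passed after cyclic loess along counts per region (adjusted p = 1.96e-07) and along counts per kb (0.0425), with TMM factors (0.0186) and without saline library 3 (0.0308). The 9300 bp domain on chromosome 11 passed after cyclic loess along counts per region (3.84e-06), with TMM factors (0.0289) and without saline library 3 (0.0212). The chromosome 4 domain passed after cyclic loess along counts per region (0.000197), and the chromosome 3 domain without saline library 2 (0.0342). The chromosome 3 domain was densely marked, at 732 per kb, above the 90th percentile of domains (707.1). The other 4 had from 464.1 to 596.8 per kb.

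The 5 most densely marked domains were 3000 to 4200 bp long. The most densely marked, chr17:87728101-87731300 (3200 bp, 1056 per kb), held 3396, 3324 and 3287 normalised counts in cocaine and 3418, 3376 and 3475 in saline, and its groups overlapped. The third, chr17:87775401-87779600 (4200 bp, 999.6 per kb), lies close by on the same chromosome. It held 4198, 4148 and 4105 in cocaine and 4267, 4055 and 4416 in saline. Again the groups overlapped. The second, chr17:34256801-34260800 (4000 bp, 1022 per kb), held 3913, 3828 and 3978 in cocaine and 4232, 4052 and 4533 in saline, with no overlap. By limma it was lower by -0.128 ± 0.0301 in log2 units (SE, adjusted p = 0.000683), and after cyclic loess along counts per kb it did not pass (adjusted p = 0.0713). The fifth, chr17:25706001-25709400 (3400 bp, 995 per kb), held 3328, 3239 and 3271 in cocaine and 3455, 3357 and 3649 in saline. It passed more narrowly, with -0.088 ± 0.0312 (limma adjusted p = 0.0417). It did not pass in 5 of the 6 fits that left out 1 library (adjusted p from 0.105 to 0.236), nor after cyclic loess along counts per region (-0.043, adjusted p = 0.196) or along counts per kb (-0.029, adjusted p = 0.472). The fourth, chr10:59413201-59416200, did not pass (adjusted p = 0.336). Deposited ratios over input in these 5 domains ran from 7.04 to 9.35 in cocaine and from 7.79 to 10.2 in saline, above the medians given for all domains. In the most densely marked the ratio was higher in cocaine (8.72) than in saline (8.62), the other way from its normalised counts.

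Borders between touching regions lay almost always where the direction of the difference between treatments changed, which bears on every comparison below. Of 9309 pairs of regions that touched or overlapped, 9163 (98.4%) had opposite directions in the deposited table. Of 16327 separate pairs at most 5000 bp apart, 40.5% did. Sign changes within a single listed region were not measured. Of the domains, 628 (37.2%) touched another region. When touching regions were joined whatever their sign, 3345 autosomal stretches of 3000 bp or more were found. A domain was present in 1664 of these stretches, and 1681 were made of shorter regions alone. Regions of both directions were present in 2268 stretches (67.8%).

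The longest joined stretch, chr12:112917401-112938700, spanned 21300 bp and was listed as 10 regions, 5 higher and 5 lower after cocaine, of which 3 were domains. Its regions summed to 20296, 20611 and 19991 normalised counts in cocaine and 20460, 20292 and 20658 in saline, where reads in overlaps between regions count for each. The groups overlapped, and limma gave the stretch a difference of -0.012 ± 0.0163 in log2 units (SE, adjusted p = 0.623). The next, chr3:87940801-87958400, spanned 17600 bp as 5 regions and included the 9200 bp domain named above. Its log2 fold change was -0.034 ± 0.0187 (adjusted p = 0.210), closer to 0 than the -0.060 of that domain alone. The third, chr2:30560701-30578200, spanned 17500 bp as 4 regions, with -0.048 ± 0.0177 (adjusted p = 0.0435).

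Differences between cocaine and saline in the domains were small. The median absolute log2 fold change was 0.063, or 1.04-fold, and the range was -0.41 to 0.19. Of the 1689 domains, 821 were higher and 868 lower after cocaine, with a median log2 fold change of -0.026, against -0.018 over all regions. Cyclic loess scaling moved the median of the domains to 0.016 and that of all regions to 0.003. The share of domains that were higher was 48.6% before this scaling and 56.8% after it. Few domains were near 0: 17 (1.01%) had an absolute log2 fold change of 0.02 or less, against 7.16% of shorter regions. Among autosomal regions of 2000 to 2900 bp the share was 1.83%. Regions were listed for a difference between these groups, so few values near 0 cannot be read as a trait of the domains. Since borders followed the sign of the difference, the direction of a domain is not independent of how it was delimited. Libraries of 1 group differed in a domain by a median SD of 0.0357 on the log2 scale, below the 0.0524 of shorter regions, which hold fewer reads. The median number of normalised counts was 1814 per domain and 501.4 per shorter region.

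Limma called 329 domains (19.5%) at an adjusted p of 0.05, where 13.0% of all 49712 regions were called. Of these, 57 were higher after cocaine (3.37%, against 3.42% of all regions) and 272 were lower (16.1%, against 9.62%). The split depended on the scaling of the libraries. With cyclic loess along counts per region it was 678 higher and 149 lower (48.96% of domains, against 14.98% of all regions). With cyclic loess along counts per kb it was 53 higher and 102 lower (9.18%, against 11.88%). With TMM factors it was 141 higher and 292 lower (25.64%, against 13.82%). Whether domains or all regions had the larger share called thus also depended on the scaling. An unadjusted limma p below 0.05 was found in 710 domains. When limma used each region's own variance alone, 0 domains passed, and over all regions only 2 did (0.0040%). In that fit 550 domains had an unadjusted p below 0.05. Shares over all regions were not computed for the unadjusted p, so nothing is read from these 2 unadjusted counts. Without any test, 903 domains (53.5%, against 29.1% of all regions) had cocaine values that all lay on 1 side of the saline values. The authors' deposited table gave an adjusted p below 0.05 to 1212 domains (71.8%), where it did so for 65.9% of all regions. Because every region was listed for this same contrast and borders followed its sign, nothing is read from how these shares compare with all regions. When touching regions were joined, limma called 61 stretches of 3000 bp or more higher and 306 lower, 10.97% of 3345, where 14.9% of all 40403 stretches were called.

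Saline library 3 stood apart in the called domains and over all listed regions. Its median over all regions was 519.3 normalised counts, against 509.8 to 512.7 in the other libraries. Per the file headers it had the fewest reads per 1000 bp bin, a mean of 40.08 against 43.80 to 47.77. It was the highest of the 6 libraries in 249 of the 272 domains called lower (91.5%), and in 652 of all 1689 (38.6%). Without saline library 3, 107 domains were called higher and 165 lower (16.1% of domains, against 7.43% of all regions). Leaving out cocaine library 1 gave 108 calls (6.39%, against 6.20%), and leaving out cocaine library 2 gave 104 (6.16%, against 6.15%). Leaving out saline library 1 gave 199 (11.8%, against 9.88%), cocaine library 3 gave 264 (15.6%, against 11.5%) and saline library 2 gave 397 (23.5%, against 13.9%). The lowest library was most often saline library 2, in 440 domains (26.1%), and it was the lowest in 26 of the 57 domains called higher.

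Among domains called higher, the largest difference was at chr18:77208001-77211900 (3900 bp), which held 1178, 1168 and 1159 normalised counts in cocaine and 1024, 1021 and 1030 in saline. Both groups were tight and far apart (limma log2 fold change 0.19 ± 0.0388, SE, adjusted p = 6.22e-05). The domain chr1:64761801-64765100 (3300 bp) held 982.2, 998.6 and 964.2 in cocaine and 921.4, 842.3 and 857.4 in saline (0.17 ± 0.0399, adjusted p = 0.000724). The domain chr9:98335801-98338800 (3000 bp) held 776.9, 756.4 and 730.5 in cocaine and 653.3, 661.1 and 699.3 in saline (0.17 ± 0.0421, adjusted p = 0.00162). It did not pass after loess along counts per kb (adjusted p = 0.158), and its deposited ratio over input went the other way, 2.51 in cocaine and 2.71 in saline. In the other 4 domains named here as called higher, that ratio was higher in cocaine. None of these 3 had groups that overlapped, and all 3 were thinly marked for domains, from 237.6 to 281.2 per kb. The domain chr16:8995301-8998500 (3200 bp, 379.8 per kb) held 1243, 1285 and 1309 in cocaine and 1183, 1133 and 1137 in saline (0.15 ± 0.0381, adjusted p = 0.00173), and it held a 5hmC region. The domain chr2:7154101-7157100 (3000 bp) held 884.4, 868.1 and 841.9 in cocaine and 775.6, 759.4 and 806.9 in saline (0.15 ± 0.0408, adjusted p = 0.00558). It did not pass without cocaine library 1 (adjusted p = 0.0727), nor after loess along counts per kb (adjusted p = 0.123). With each region's own variance, none of the domains named here as called higher passed (limma adjusted p from 0.129 to 0.281). Their SEs were then 0.0078 to 0.0422.

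Among domains called lower, chr6:83404901-83408100 (3200 bp) held 1226, 1281 and 1361 normalised counts in cocaine and 1532, 1487 and 1733 in saline (limma log2 fold change -0.29 ± 0.0369, SE, adjusted p = 1.28e-12). The domain chr17:66131101-66134200 (3100 bp) held 882.5, 909.6 and 956.4 in cocaine and 1070, 1016 and 1235 in saline (-0.27 ± 0.0394, adjusted p = 2.26e-09). In both, saline library 3 was far above the other saline libraries and cocaine library 3 was the highest of the cocaine libraries. The same order held at chr8:37310301-37313600 (3300 bp), with 1188, 1227 and 1270 in cocaine and 1452, 1330 and 1613 in saline (-0.25 ± 0.0374, adjusted p = 5.18e-09). It held again at chr5:65193401-65196400 (3000 bp), with 1258, 1315 and 1358 in cocaine and 1557, 1441 and 1628 in saline (-0.23 ± 0.0370, adjusted p = 4.31e-08). The domain chr5:122286501-122289600 (3100 bp) differed from the other 4 in that saline library 1 was the highest: it held 1094, 1053 and 1166 in cocaine and 1320, 1256 and 1305 in saline (-0.23 ± 0.0382, adjusted p = 2.57e-07). With each region's own variance, the SEs of these domains called lower were wider, from 0.0479 to 0.0908. None of them then passed (limma adjusted p from 0.281 to 0.286). The largest decrease of any domain, chosen after its value was seen, was at chr4:133307001-133310500 (3500 bp). It held 1134, 1132 and 1272 in cocaine and 1574, 1327 and 1817 in saline, and with this spread it did not pass (-0.41 ± 0.142, adjusted p = 0.175).

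**Figure D2:**
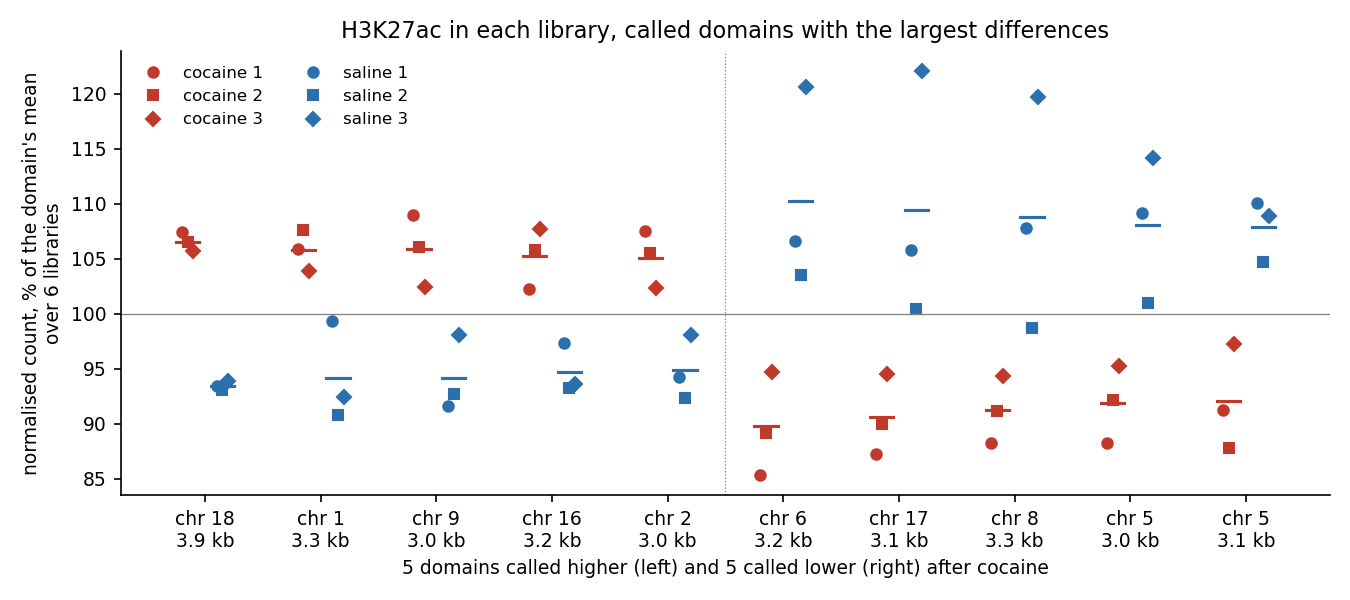
Normalised count of each library as a percent of the mean of the 6 libraries, for the 5 domains called higher and the 5 called lower after cocaine with the largest differences; symbols are libraries and short lines are group means. Cocaine and saline values do not overlap in any of the 10 domains, and saline library 3 is the highest in 4 of the 5 domains on the right.

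Direction varied with density. The domains were divided into 5 classes of nearly equal size by level, called quintiles here. In the lowest quintile, up to 398.6 per kb, 222 of 338 domains (65.7%) were higher after cocaine, with a median log2 fold change of 0.059 and 37 called higher and 33 called lower. The middle quintile had 53.1% higher and a median of 0.027. In the highest quintile, from 627.8 per kb, 51 of 338 (15.1%) were higher, with a median of -0.061, 0 called higher and 100 called lower. Over all regions, whatever their level, 3.42% were called higher and 9.62% lower. Shorter regions were not divided by level, so the counts per quintile are not read as particular to the domains. Without saline library 3 the shares of higher domains in the lowest and highest quintiles were 65.7% and 16.6%. The median of the highest quintile was then -0.035, and 3 of its domains were called higher and 44 lower, where 7.43% of all regions were called. Loess along counts per kb fits a trend with density for each library against the average of the 6 libraries. After it the shares of higher domains were 65.7% and 34.9%, with medians of 0.059 and -0.015. The highest quintile then had 10 called higher and 20 lower, where 11.88% of all regions were called. The lowest quintile then had 6 called higher and 24 lower, so more of its calls were lower, unlike with no loess. Cyclic loess along counts per region gave medians of 0.095 and -0.017, with 185 called higher and 20 lower in the lowest quintile and 43 and 50 in the highest. In that fit 14.98% of all regions were called. Spearman's rho of log2 fold change against level was -0.403 across the 1689 domains, and -0.254 across all 49712 regions. Points share the libraries, and level and fold change come from the same counts.

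**Figure D3:**
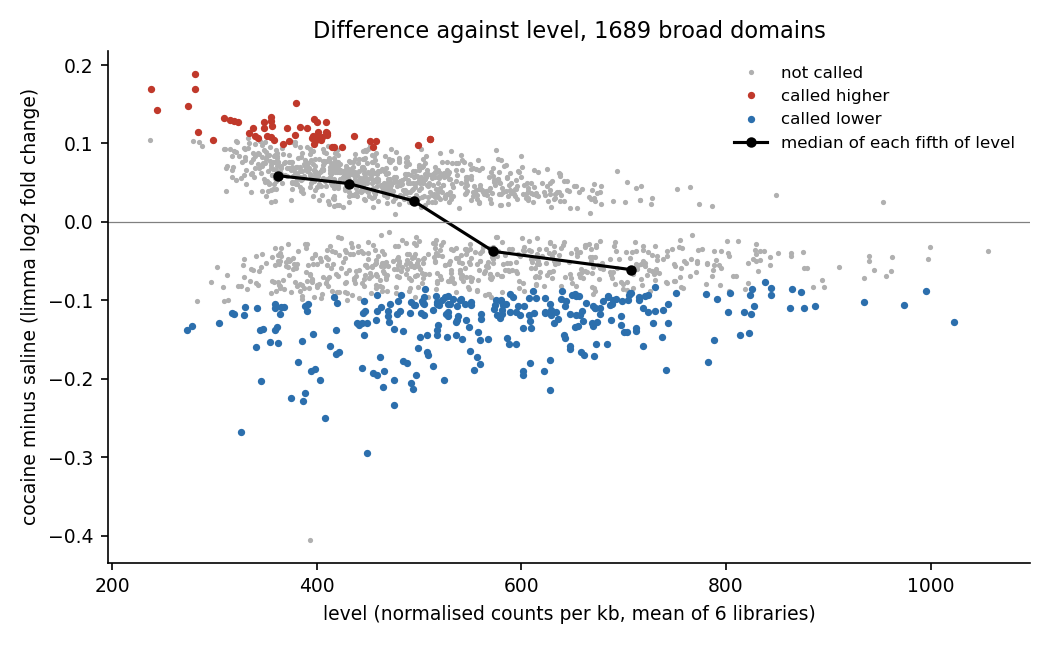
Limma log2 fold change of cocaine over saline against level (normalised counts per kb, mean of 6 libraries) for the 1689 domains, with called domains in colour and the median of each quintile of level in black. The medians go from 0.059 in the lowest quintile to -0.061 in the highest. Almost no domain lies at 0, in a set of regions listed for a difference between these groups.

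Libraries of 1 group differed among themselves. The deviation of a library from the mean of the 6 was taken in log2 units for each domain, and its median over each quintile of level was computed. In the highest quintile saline library 3 stood at 0.0815, saline library 1 at 0.0225 and saline library 2 at -0.010. The cocaine libraries stood at -0.028, -0.043 and -0.023, below all saline libraries. In the lowest quintile the cocaine libraries stood at 0.024, 0.025 and 0.0062, and the saline libraries at -0.012, -0.027 and -0.020. In the highest quintile the gap between saline libraries 3 and 2 was wider than the gap between saline library 2 and cocaine library 3.

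**Figure D4:**
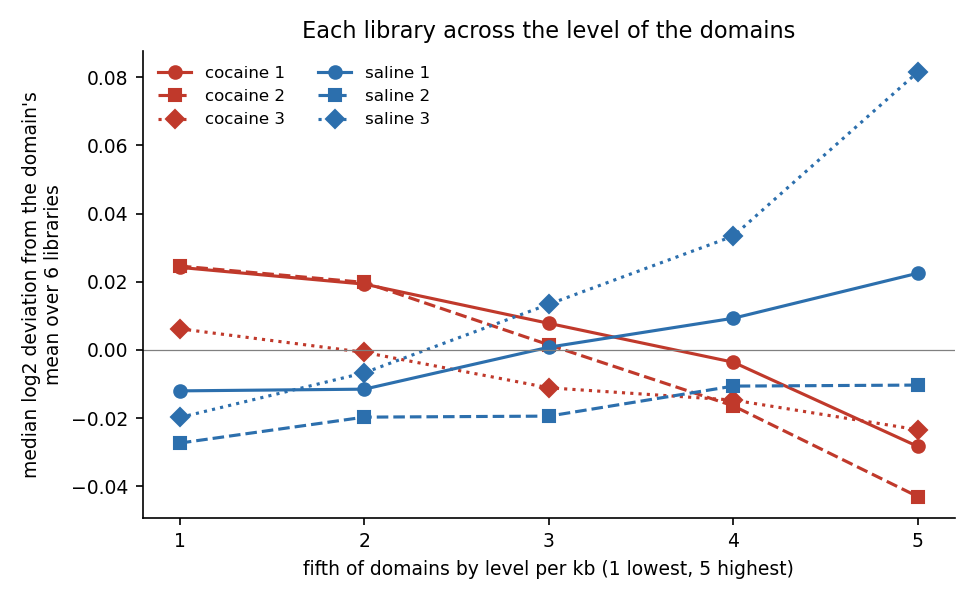
Median log2 deviation of each library from the mean of the 6 libraries, over the domains of each quintile of level per kb. The cocaine libraries are lower in the highest quintile than in the lowest and the saline libraries are higher, and saline library 3 reaches 0.0815 in the highest quintile.

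As a share of each library's summed counts, the domains held 10.431%, 10.413% and 10.378% in the cocaine libraries and 10.385%, 10.369% and 10.405% in the saline libraries. The means were 10.41% ± 0.027 and 10.39% ± 0.018 (SD, n = 3 each), and the groups overlapped (exact permutation test, two-sided, p = 0.4, where 0.1 is the smallest that 3 against 3 libraries allow). Domains of the highest quintile of level held 2.88% ± 0.0092 of the counts in cocaine and 2.96% ± 0.048 in saline, without overlap (exact permutation test, two-sided, p = 0.1). Domains of the lowest quintile held 1.39% ± 0.0070 and 1.35% ± 0.018, also without overlap and in the other direction (exact permutation test, p = 0.1).

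Some domains lay in groups. The median gap to the next domain on a chromosome was 207 kb. Taking domains at most 10000 bp apart as 1 group, 386 domains (22.9%) fell into 168 groups of 2 or more, and 1303 stood alone. The largest group, at chr12:109156101-109225500, had 10 domains among 27 H3K27ac regions in 69.4 kb, with levels of 453.6 to 634.9 per kb. Of its domains 8 were higher and 2 lower after cocaine, and 0 were called. Their counts summed to 22554, 22329 and 22046 in cocaine and 21715, 21645 and 22276 in saline, so the groups overlapped. A group at chr9:62319601-62368700 had 6 domains among 19 regions in 49.1 kb, 5 higher, 1 lower and 0 called. Its sums were 15210, 15193 and 14807 in cocaine and 14975, 14641 and 14827 in saline, with overlap. A group at chr8:126787601-126841500 had 6 domains in 53.9 kb, 5 higher and 1 lower, with 9556, 9397 and 9548 in cocaine above 9259, 9184 and 9354 in saline. At chr2:30551901-30582500, which takes in the third longest joined stretch, all 4 domains were lower and 1 was called. Its sums were 16989, 16905 and 17218 in cocaine below 17626, 17390 and 18108 in saline. Its domains had a median level of 727.7 per kb, against 591.9 in the group of 10 on chromosome 12.

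Across chromosomes, domains made up between 2.68% of the regions (chromosome 3, 53 of 1980) and 4.07% (chromosome 11, 167 of 4099). The share of domains that were higher after cocaine ran from 27.1% of 48 on chromosome 19 to 72.1% of 43 on chromosome 16. Median levels of the domains ran from 448.6 per kb on chromosome 13 to 540.7 on chromosome 3.

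The second readout was 5hmC, which arises when Tet enzymes oxidise 5-methylcytosine and which is abundant in neurons. The 5hmC table lists regions that passed its caller for cocaine against saline, in other libraries than those of H3K27ac. A 5hmC region shared at least 1 bp with 100 of the 1689 domains, 5.92% (95% exact binomial interval 4.84% to 7.15%), and with 2.15% of shorter regions (2.02% to 2.29%). The domains are longer, and per Mb the numbers were close, 15.96 pairs in domains and 15.7 in shorter regions. Of the 102 5hmC regions in domains, 52 were higher and 50 were lower after cocaine. Their centres fell inside the domains at 7.67 per Mb in each direction. In shorter regions the centres of higher 5hmC regions fell at 8.29 per Mb and those of lower ones at 5.44 per Mb. Counts in the domains were small, with 49 centres of each, and this difference was not tested.

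Directions of the marks were evenly mixed in these domains. Of the 52 pairs in which 5hmC was higher after cocaine, H3K27ac was higher in 25 and lower in 27. Of the 50 in which it was lower, H3K27ac was higher in 24 and lower in 26. In 13 pairs limma had called the domain, 6 of them with the same direction in both marks. The deposited adjusted p of these 5hmC regions was 0.135 to 0.141, so none lay below 0.05. Domains with a 5hmC region had a median level of 462.2 per kb and a median length of 3700 bp, against 496.4 per kb and 3500 bp in the others.

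Each of 2 domains held 2 5hmC regions, and all 4 were lower after cocaine. In chr7:108607801-108611000 (3200 bp), the 5hmC region at 108608101-108608340 had 6.73, 4.94 and 8.09 normalised counts in cocaine and 19.7, 13.4 and 14.8 in saline. The other, at 108610281-108610480, had 9.61, 9.88 and 12.6 in cocaine and 25.1, 22.65 and 17.8 in saline. H3K27ac of this domain was 1791, 1902 and 1776 in cocaine and 1849, 1849 and 1913 in saline, with groups that overlapped (limma adjusted p = 0.487). In chr19:46556501-46561200 (4700 bp), the 5hmC region at 46557701-46558020 had 6.73, 7.41 and 3.59 in cocaine and 11.7, 22.65 and 15.8 in saline. The other, at 46560461-46560660, had 1.92, 1.23 and 0.90 in cocaine and 6.28, 6.18 and 8.88 in saline. H3K27ac there was 1738, 1702 and 1755 in cocaine, all below 1821, 1844 and 1815 in saline, and the difference of -0.077 ± 0.0354 (limma log2 fold change, SE) did not pass (adjusted p = 0.133). In chr1:36635201-36638500 (3300 bp), 5hmC at 36635261-36635480 was higher after cocaine, with 8.65, 11.1 and 7.19 in cocaine and 1.79, 2.06 and 3.95 in saline, 60 bp inside the border. H3K27ac of this domain went the other way, 1537, 1478 and 1493 in cocaine below 1597, 1590 and 1556 in saline (limma adjusted p = 0.169, not called), while its deposited ratio over input was 4.42 in cocaine and 3.93 in saline. It is the first in genome order of the many domains that held 1 5hmC region. The 5hmC values rest on few reads per library, and the order of the 5hmC libraries is that of the table.

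Around the domains, 5hmC regions thinned out slowly. Centres of 5hmC regions lay at 15.3 per Mb inside domains, 14.5 within 1 kb of the border, 13.1 from 10 to 20 kb and 10.1 from 100 to 200 kb. Around shorter regions the numbers were 13.7 inside, 13.4 within 1 kb, 11.5 from 10 to 20 kb and 9.36 from 100 to 200 kb. H3K27ac regions themselves crowded near domains, at 242.2 centres per Mb within 1 kb and 69.3 from 100 to 200 kb, against 207 and 58.7 around shorter regions. Flanks of neighbouring regions overlap, so an interval can count more than once.

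The authors also listed 5hmC enhancer intervals specific to cocaine and to saline. A cocaine-specific interval lay in 10 domains (0.592%, 95% exact binomial interval 0.284% to 1.09%) and a saline-specific interval in 6 (0.355%, 0.130% to 0.772%). Per Mb, this was 1.56 and 0.939 in domains and 2.95 and 1.73 in shorter regions. Centres of cocaine-specific intervals rose from 1.25 per Mb inside domains to 2.07 within 1 kb, 5.62 from 2 to 5 kb and 6.75 from 100 to 200 kb. Saline-specific intervals had 6 centres inside, 1 within 1 kb and 2 from 1 to 2 kb, or 0.939, 0.296 and 0.592 per Mb, and reached 5.43 per Mb from 2 to 5 kb and 7.75 from 100 to 200 kb. Intervals of both lists were thus rarer in the domains than far from them. The same held for shorter regions, with 2.58 cocaine-specific and 1.49 saline-specific centres per Mb inside. From 100 to 200 kb around shorter regions these were 7.01 and 7.46. The sources used here do not say how these lists were made.

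**Figure D5:**
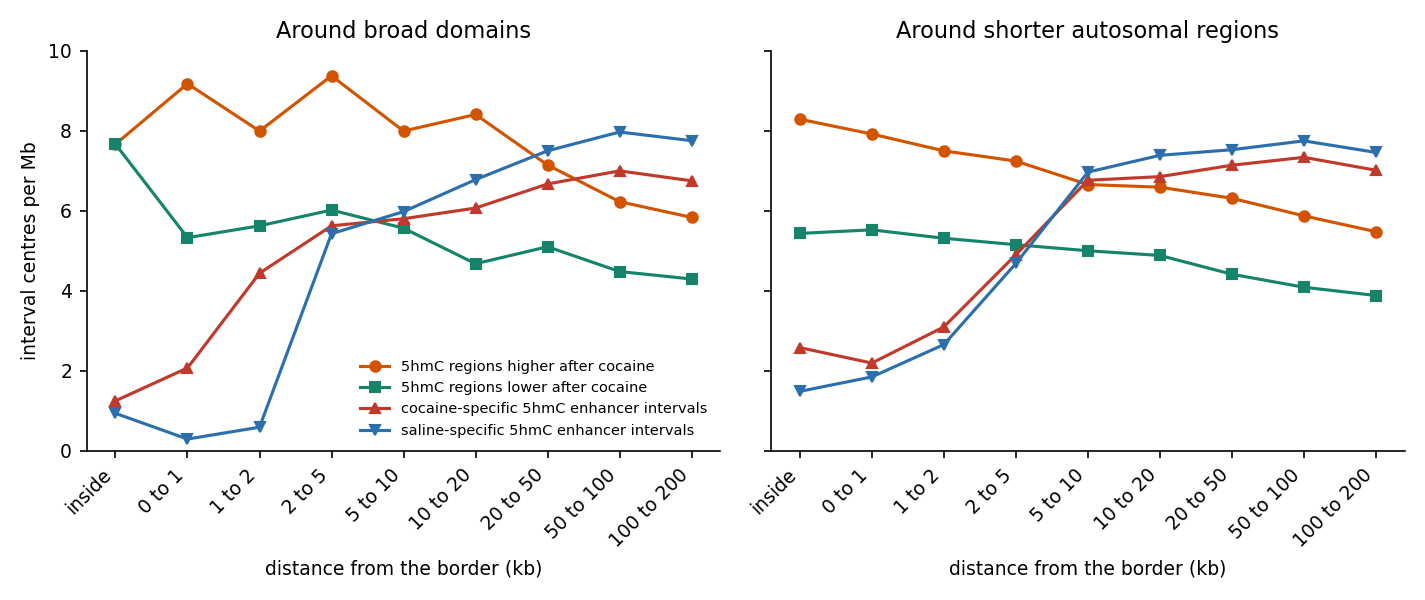
Centres per Mb of 5hmC regions higher or lower after cocaine and of the authors' 5hmC enhancer intervals specific to cocaine or to saline, inside and at increasing distance (kb) from the border of broad domains (left) and of shorter autosomal regions (right). 5hmC regions lower after cocaine are densest inside domains (7.67 per Mb), and those higher after cocaine are densest at 2 to 5 kb (9.37 per Mb). Both enhancer lists are sparse inside domains and reach 6.75 and 7.75 per Mb at 100 to 200 kb, and they are sparse inside shorter regions too.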

How the data were processed

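Per the submitters' processing notes, the authors used Bowtie 0.12.9 and the build mm9. H3K27ac regions were found with diffReps 1.54, per the file headers, under its negative binomial model, a window of 1000 bp, a step of 100 bp, a gap of 0, a window p of at most 0.0001 and a deviation cutoff of 2. Each library's normalised count is, per the file headers, divided by a constant of 0.91 to 1.04, and the authors' group signal is the mean of 3 such counts. The deposited ratio divides a group signal by that treatment's input. The deposited log2 fold change, p-value and adjusted p are those of the authors' caller. The 5hmC caller was not named in those sources. No per-library column was left out (0).

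Within a library, 100% of the values below 400 were multiples of 1 read's worth to within 0.1 read, with a median of 510 to 519 normalised counts per region. Differences were tested with limma 3.58.1 (R 4.3.3) after taking log2(value + 1) over all 49712 regions, with a mean-variance trend, robust moderation and Benjamini-Hochberg adjustment. The code was also run on simulated independent counts. Those counts held no shift of a whole library and no trend with level, so that run says nothing about such shifts here. Other steps ran in Python 3.11.15 with scipy 1.17.1, pandas 2.3.3, numpy 2.4.6 and matplotlib 3.10.9. Intervals cover counting error only. Library numbers for H3K27ac give the order in which the file header lists the libraries of a group, and are not the names it gives them. Named were the 5 longest domains, the 5 with the highest level, the 5 called higher and 5 called lower with the largest limma fold changes, and the first 3 by number of 5hmC regions, with ties taken in genome order. Members and lists were chosen with earlier results of these data known. A library labelled both as cerebellum input and as nucleus accumbens was not used. The planned edgeR test was not run, since the deposited cells join 3 normalised values and hold no raw counts. Gene lists were not used, since no annotation of mm9 was at hand.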

Additional observations from a re-analysis of the deposited data

How the results depend on the processing

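Limma called 329 domains. The count was 329 with log2(value + 10), with a minimum mean of 100 and with chromosomes 1 to 19 alone, 333 with plain moderation and 433 with TMM factors. It was 151 at an adjusted p below 0.01, 827 after cyclic loess, 155 after loess along counts per kb and 0 with each region's own variance, and between 104 and 397 with 1 library left out. The share of domains called was 48.96% after cyclic loess, against 14.98% of all regions, and 9.18% after loess along counts per kb, against 11.88%. It was 25.64% with TMM factors, against 13.82%, and 8.94% at an adjusted p below 0.01, against 6.56%. With each region's own variance it was 0%, against 0.0040%. With a minimum length of 2000, 4000 or 5000 bp the number of regions changed, and the count was 1616 of 8024, 91 of 486 and 27 of 160. These were 20.1%, 18.7% and 16.9%, against 13.0% of all regions. Of domains with no touching neighbour, 244 of 1061 were called, and of joined stretches 367 of 3345. The loess along counts per kb, the joined stretches and the domains with no touching neighbour were chosen after seeing the data. The median log2 fold change of -0.026 was -0.024 to -0.0083 with 1 library left out, 0.016 after cyclic loess and 0.014 after loess along counts per kb. It was -0.041 at 2000 bp, 0.029 at 4000 bp and 0.038 at 5000 bp. Few domains lay near 0, so the median can change sign on a small change in the share that were higher. That share was 48.6% at first, 56.8% after cyclic loess and 53.9% after loess along counts per kb. It was 40.0%, 52.3% and 53.1% at 2000, 4000 and 5000 bp. The share of counts was higher in cocaine by 0.0206 percentage points, and by 0.0085 to 0.0354 with 1 library left out. At a minimum length of 2000 bp the difference reversed to -0.237, with an exact permutation p of 0.1. Median level was 471.8, 507.4 and 517 per kb at 2000, 4000 and 5000 bp. Domains with a 5hmC region were 8.53% within 1000 bp, 3.60% and 7.61% at 2000 and 4000 bp, and 0% at a deposited 5hmC adjusted p below 0.1. The cocaine-specific list reached 1.23% and 1.88% of domains at 4000 and 5000 bp, and the saline-specific list 0% at 5000 bp. Among named domains that were not called, the sign changed as follows, and the cause was not tested. On chromosome 17 from 87728101 the log2 fold change became 0.0078 after cyclic loess and 0.023 after loess along counts per kb, and from 87775401 it became 0.013 and 0.026. On chromosome 10 from 59413201 it became 0.011 after loess along counts per kb, and on chromosome 7 from 108607801 it became 0.0037 after cyclic loess. Of the 10 named called domains with the largest differences, 10 were lost with their own variance and 2 after loess along counts per kb. No paired analysis was possible because the labels give the cocaine and saline libraries no shared replicate numbers. The planned count test was not run.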

Other observations

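The tested window of each domain had, in the authors' deposited table, a median p of 6.56e-11 and at most 2.19e-10, with a median absolute log2 fold change of 0.08. In 481 domains (28.5%) that window differed by 0.05 or less on the log2 scale. Among the 661 domains whose log2 fold change in the authors' deposited table was 0.05 or less in size, 435 (65.8%) had a deposited adjusted p below 0.05, and among the 134 above 0.12 in size, 119 (88.8%) did. The median deposited p of these sets was 8.18e-10 and 1.29e-09.

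The listed window lay within the first 10% of its possible positions in 511 domains (30.3%) and within the last 10% in 518 (30.7%). It lay between these ends in 660 (39.1%).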
